A study of Mus musculus with 24 samples.

Results

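Goblet cells are the secretory cells of the intestinal epithelium that make mucus, and 8 genes of that programme are described here over duodenum, jejunum and ileum of Casp1-null and wild-type mice, with liver set beside them. The genes were chosen by name, as Muc2, Tff3, Fcgbp, Zg16, Agr2, Spdef, Muc13 and Clca1. Of these 8, 7 were measured by a probe set that carried their symbol alone, out of 18820 genes measured in that way. Fcgbp, which codes for a protein crosslinked into mucus, lay on a probe set shared with another gene symbol (9530053A07Rik), so no value is attributed to it. On GRCm38.p6, Muc2, Fcgbp and Zg16 lie on chromosome 7, Tff3 and Spdef on 17, Agr2 on 12, Muc13 on 16 and Clca1 on 3.

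The study asked how loss of caspase-1, the protease of inflammasomes, affects lipoprotein secretion by intestine and liver. Each of 8 groups (4 tissues and both genotypes) had 3 single-colour Affymetrix arrays, 24 in all. The tested animals were Casp1-null mice backcrossed for 10 generations to C57BL/6, and the controls were wild-type C57BL/6J mice of the same age, not stated to be littermates, so genotype and breeding background cannot be told apart. Every mouse was a chow-fed male of 14 to 16 weeks. The intestinal groups were mice fasted overnight and given 200 µL of olive oil into the stomach 2 h before removal of the tissue, of which the epithelial layer was scraped off. The liver groups were mice fasted for 16 h, with no oil named for them, so tissue and feeding state cannot be told apart. The labels do not say which arrays of different tissues came from 1 animal, and p-values measure the spread between these samples. The values are bulk measurements, in which fewer goblet cells and less RNA per goblet cell cannot be told apart.

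A goblet cell forms when an epithelial progenitor escapes Notch signalling and turns on Atoh1, after which Spdef drives its maturation. The cell folds and packs the gel-forming mucin Muc2 with the help of the protein disulphide isomerase Agr2, and releases it together with the trefoil peptide Tff3, the lectin-like Zg16 and the mucus-processing protease Clca1. Muc13 is a mucin anchored in the cell membrane and is carried by absorptive cells as well, so that it is the least goblet-restricted of the members. Zg16 was first described in the zymogen granules of exocrine pancreas, so it is not restricted to goblet cells either.

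The promoters of Muc2, Agr2 and Spdef are shown because these 3 members were higher towards the ileum in both genotypes, as described below. Each window runs from 250 bases before to 50 bases after a transcript start of the gene, 5′ to 3′ on the gene's strand, from RefSeq on GRCm38.p6. The single Spdef window listed belongs to a transcript start inside the annotated gene (chr17:27714446-27731003), not to the gene's outermost start. Capitals mark matches on either strand to TTTATG (bound by the intestinal factor Cdx2) or CAGCTG (an E-box of the kind that Atoh1 binds). The Muc2 window lies at chr7:141690090-141690389 on the plus strand, that of Agr2 at chr12:35992675-35992974 on the plus strand and that of Spdef at chr17:27728902-27729201 on the minus strand.
Muc2: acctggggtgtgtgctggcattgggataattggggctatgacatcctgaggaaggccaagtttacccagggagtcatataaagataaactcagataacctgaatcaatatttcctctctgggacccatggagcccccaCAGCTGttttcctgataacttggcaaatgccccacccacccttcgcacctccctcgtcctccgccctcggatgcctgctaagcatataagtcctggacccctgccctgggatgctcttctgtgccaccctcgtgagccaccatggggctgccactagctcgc
Agr2: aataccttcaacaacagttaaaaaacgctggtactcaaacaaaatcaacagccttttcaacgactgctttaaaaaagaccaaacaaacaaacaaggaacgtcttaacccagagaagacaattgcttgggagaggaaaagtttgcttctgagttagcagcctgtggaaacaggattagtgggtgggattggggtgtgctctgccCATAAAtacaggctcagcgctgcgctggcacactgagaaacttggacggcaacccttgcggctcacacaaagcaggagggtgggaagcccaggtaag
Spdef: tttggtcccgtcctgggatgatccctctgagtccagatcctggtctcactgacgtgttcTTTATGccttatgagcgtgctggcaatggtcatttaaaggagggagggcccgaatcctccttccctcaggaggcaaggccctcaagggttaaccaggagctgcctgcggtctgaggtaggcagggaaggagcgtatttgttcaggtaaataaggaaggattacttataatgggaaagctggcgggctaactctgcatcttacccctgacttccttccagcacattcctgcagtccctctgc
The Muc2 window held CAGCTG with its first base at position -112 from the start, a motif present in 16.3% of 32851 promoters of this length. The windows of Agr2 and Spdef held TTTATG, on the minus strand at -47 and on the plus strand at -191, and 11.9% of promoters held it. TGTTTAC (Foxa factors; 3.65% of promoters) and CCGGAT (Spdef; 6.04% of promoters) were not in these 3 windows. The motifs do not overlap each other here, and a match is a description of the letters only. Windows were also listed for Fcgbp (1, with CAGCTG) and Muc13 (2, of which 1 held TTTATG), and none was listed for Tff3, Zg16 and Clca1.

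Casp1 itself followed the labels in intestine, where the 9 Casp1-null arrays lay at 5.82 to 7.80 and the 9 wild-type arrays at 8.26 to 9.95 on the log2 scale. In liver it was low in both genotypes, at 3.80 to 4.27 in Casp1-null and 4.22 to 4.60 in wild type, so it does not check the liver labels. Which exons its probes cover, against those deleted, is not stated. Among the 18 intestinal arrays, 4 stood apart in markers of other tissue. Duodenum wild-type replicate 1 averaged 9.88 over 10 exocrine pancreas genes, against 4.46 in the lowest duodenum wild-type array. Duodenum Casp1-null replicate 3 had 7.14 for Muc6 and 7.20 for Tff2, mucus genes of Brunner's glands, against 3.38 and 4.04 in the lowest Casp1-null duodenum. Ileum Casp1-null replicate 3 and ileum wild-type replicate 2 averaged 8.61 and 8.98 over 11 smooth muscle and stroma genes, against 4.31 in the lowest Casp1-null and 4.38 in the lowest wild-type ileum. Hepatocyte genes marked the livers (mean over 7 genes 12.86 to 13.14 in liver, at most 6.29 in intestine) and enterocyte genes the intestine (mean over 10 genes 11.24 to 12.91). Calls of the members are given with and without these 4 arrays.

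The probe sets of 6 members were among the brightest of the intestinal arrays, a level that depends on the probes as well as on the transcript. Muc2, Tff3, Zg16, Agr2, Muc13 and Clca1 lay between 11.48 and 13.20 in every intestinal array, at or above the 97.8th percentile of genes in each, where the highest values of any gene were 13.74 to 13.92. That of Spdef, a transcription factor, lay between 7.28 and 8.93 and between the 68.9th and 84.8th percentile. Against wild-type liver, all 7 measured members were called higher in wild-type small intestine, taken as the mean of its 3 segments, where 31.1% of all genes were called higher (limma, adjusted p under 0.05). The log2 differences were 7.05 for Muc2, 5.98 for Tff3, 5.52 for Zg16 and 7.48 for Muc13. For Agr2, Spdef and Clca1 the liver means lay under the lowest liver array median of 5.19, which was read as not shown above background, so small intestine was at least 102-fold, 6.41-fold and 180-fold higher for them. The liver range of each measured member lay wholly under its intestinal range. Across the 53 measured genes of 5 further mucus lists, 36 were called higher and 4 lower in small intestine, with a median log2 difference of 1.84, against -0.06 over all genes.

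Along the small intestine, Muc2, the gel-forming mucin, was lowest in duodenum and highest in ileum in both genotypes. In Casp1-null mice it had 12.48, 12.54 and 12.49 in duodenum, 12.84, 12.83 and 13.01 in jejunum, and 13.20, 13.16 and 13.13 in ileum (log2). In wild type it had 12.22, 12.61 and 12.57 in duodenum, 13.01, 12.82 and 12.76 in jejunum, and 13.16, 13.04 and 13.07 in ileum. Within each genotype the ranges of the 3 segments did not overlap. Ileum exceeded duodenum 1.58-fold in Casp1-null (log2 0.66, SE 0.102, adjusted p = 0.000314) and 1.54-fold in wild type (log2 0.62, SE 0.102, adjusted p = 0.000364). Duodenum was lower than jejunum by a log2 difference of -0.39 in Casp1-null (adjusted p = 0.0461) and -0.40 in wild type (adjusted p = 0.0321), while ileum against jejunum was not called (0.27 and 0.23, adjusted p = 0.12 and 0.184).

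Agr2, which folds Muc2 in the endoplasmic reticulum, had the same order of segments. In Casp1-null mice it had 11.65, 11.71 and 11.54 in duodenum, 11.99, 12.03 and 12.02 in jejunum, and 12.06, 12.25 and 12.13 in ileum. In wild type it had 11.48, 11.64 and 11.59 in duodenum, 12.12, 12.00 and 11.87 in jejunum, and 12.33, 12.33 and 11.97 in ileum, where the ileal and jejunal ranges overlapped. Ileum exceeded duodenum by a log2 difference of 0.51 in Casp1-null (SE 0.104, adjusted p = 0.00287) and 0.64 in wild type (SE 0.104, adjusted p = 0.000363). Duodenum lay under jejunum by -0.38 in Casp1-null (adjusted p = 0.0589, not called) and by -0.42 in wild type (adjusted p = 0.0252, called).

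Spdef, the maturation factor, was the member with the widest spread between arrays. It had 7.37, 7.28 and 7.44 in Casp1-null duodenum, 7.65, 7.70 and 8.15 in jejunum, and 8.12, 8.93 and 7.88 in ileum. In wild type it had 7.44, 7.67 and 7.36 in duodenum, 8.22, 7.75 and 8.03 in jejunum, and 8.23, 8.31 and 7.99 in ileum. Every ileal array was above every duodenal one of its genotype, but jejunum and ileum overlapped in both genotypes. The ileum-minus-duodenum difference was 0.94 in Casp1-null (SE 0.219, adjusted p = 0.00719) and 0.69 in wild type (SE 0.219, adjusted p = 0.0342).

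Clca1, the mucus-processing protease, was higher in ileum only by a small step. It had 12.74, 12.71 and 12.63 in Casp1-null duodenum, 12.76, 12.78 and 12.71 in jejunum, and 13.00, 13.01 and 12.94 in ileum. In wild type it had 12.75, 12.68 and 12.65 in duodenum, 12.84, 12.55 and 12.63 in jejunum, and 13.02, 12.84 and 12.95 in ileum. Duodenum and jejunum overlapped in both genotypes, and ileum lay above both, in wild type by less than the rounding for 1 jejunal array. Ileum exceeded duodenum by 0.29 in Casp1-null (SE 0.083, adjusted p = 0.0246) and 0.25 in wild type (SE 0.083, adjusted p = 0.0431). Against jejunum, ileum was higher by 0.23 in Casp1-null (adjusted p = 0.106, not called) and 0.27 in wild type (adjusted p = 0.0484, called).

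The other 3 measured members did not change between segments by the test. Tff3, the trefoil peptide of epithelial repair, spanned 12.45 to 12.92 over all 18 arrays, Zg16 12.85 to 13.11 and Muc13 12.50 to 13.02. Their ileum-minus-duodenum differences were -0.01 for Tff3, 0.07 for Zg16 and 0.19 for Muc13 in Casp1-null, and 0.19, 0.02 and 0.09 in wild type, with adjusted p of 0.247 or more. Their 95% intervals, over both genotypes, reached from -0.25 to 0.44, so that a step in signal as large as that of Muc2 lay outside them. Zg16 in the pancreas-rich duodenum wild-type replicate 1 was 13.01, against 12.94 and 12.89 in the other wild-type duodena.

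**Figure D1:**
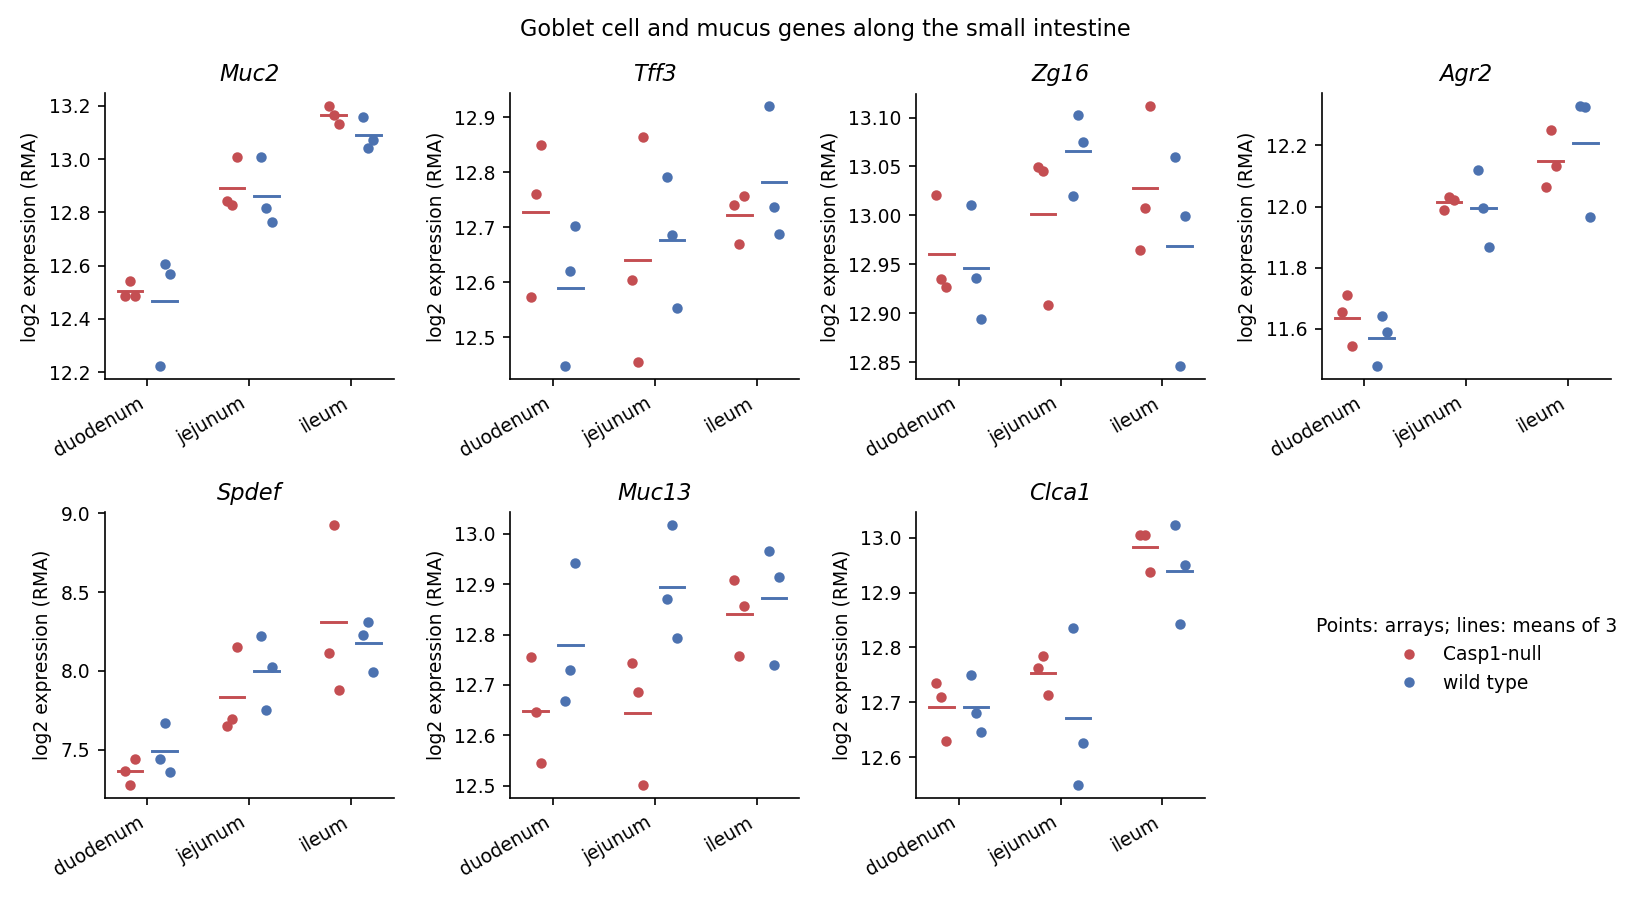
Log2 expression of the 7 measured members in each of 18 intestinal arrays, by segment, with Casp1-null (red) left of wild type (blue); points are arrays and short lines are means of 3, and each panel has its own axis that does not start at 0. Muc2, Agr2, Spdef and Clca1 lie higher in ileum than in duodenum in both genotypes, whereas Tff3, Zg16 and Muc13 were not called between any segments.

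In all, 4 of 7 members were called higher and 0 lower in ileum than in duodenum in each genotype. Over all genes 10.8% were called higher and 10.2% lower in Casp1-null, and 14.7% higher and 13.2% lower in wild type. The arrays of ileum lay wholly above those of duodenum for 5 members in Casp1-null and for 4 in wild type, where 17.3% and 20.3% of all genes did so. The fifth in Casp1-null was Muc13, apart by less than the rounding. Between ileum and jejunum 0 members were called in Casp1-null (3 at an unadjusted p under 0.05) and 1 in wild type, where 12.8% and 15.4% of all genes were called. Between duodenum and jejunum 1 member was lower in Casp1-null and 2 were lower in wild type, where 2.48% and 3.37% of all genes were called lower. Whether these steps differed between the genotypes was tested as an interaction, and 0 of 7 members were called for any pair of segments (limma), with 0 at an unadjusted p under 0.05. The percentages of all genes called there were 0.0425 for ileum against jejunum, 0.0691 for ileum against duodenum and 0.0531 for duodenum against jejunum. Without the 4 arrays that stood apart, ileum against duodenum kept 3 members in Casp1-null (Muc2, Agr2 and Spdef) and 2 in wild type (Muc2 and Agr2), and duodenum against jejunum and ileum against jejunum kept 0 in either genotype. The call of Clca1 in ileum against duodenum held in 6 of 13 alternatives in Casp1-null and 5 of 13 in wild type, and that of Spdef in 12 of 13 and 6 of 13. Those of Muc2 and Agr2 held in all 13 in both genotypes. Clca1 against jejunum in wild type held in 6 of 13, and the calls of duodenum against jejunum held in 4 of 13 for Muc2 in Casp1-null and in 7 of 13 for Muc2 and for Agr2 in wild type. In wild type, ileum against duodenum had 2 calls, Muc2 and Agr2, without duodenum replicate 1, duodenum replicate 3 or ileum replicate 1. Duodenum against jejunum had 0 in wild type without duodenum replicate 1, jejunum replicate 1 or jejunum replicate 2, and 0 in Casp1-null without any 1 of its 6 arrays. Duodenum wild-type replicate 1 had the lowest Muc2 of all 18 arrays.

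Of 10 genes of goblet transcription and Notch, 5 were higher and 1 lower in Casp1-null ileum than duodenum, and 5 were higher and 2 lower in wild type. Atoh1, which starts the secretory fate, averaged 9.26 in Casp1-null ileum against 8.23 in Casp1-null duodenum (difference 1.03), and 9.26 in wild-type ileum against 8.15 in wild-type duodenum (1.11). Foxa1, a factor of goblet and enteroendocrine cells, rose by 1.56 in Casp1-null and 1.37 in wild type. Creb3l1 and Creb3l4, membrane-bound factors of secretory cells, rose by 1.45 and 1.46 in Casp1-null and by 1.48 and 1.72 in wild type. The Notch ligand Dll1 fell by 1.61 in Casp1-null and by 2.26 in wild type, while the ligand Dll4 rose by 1.18 in wild type (adjusted p = 0.0229) and had 0.26 in Casp1-null (adjusted p = 0.689). Klf4, a factor of goblet and surface cells, fell by 0.49 in wild type (adjusted p = 0.0149) and had -0.34 in Casp1-null (adjusted p = 0.109). Hes1, the Notch target that represses Atoh1, rose by 1.00 in Casp1-null (adjusted p = 0.0211) and had 0.62 in wild type (adjusted p = 0.126). Whether that step differed between the genotypes was called for 0 of the 53 mucus-list genes (limma; 7 at an unadjusted p under 0.05).

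Of 12 measured genes that build O-glycans on mucins, 7 were called higher and 0 lower in Casp1-null, and 6 higher and 0 lower in wild type. Gcnt1, a core 2 branching enzyme, averaged 8.76 in Casp1-null ileum against 5.55 in Casp1-null duodenum (9.26-fold), and 9.27 in wild-type ileum against 5.40 in wild-type duodenum (14.7-fold). B3gnt6, the core 3 synthase, was at least 2.33-fold higher in Casp1-null ileum, its duodenal mean being under the lowest array median, and 2.79-fold higher in wild type. The starter enzymes Galnt4, Galnt7 and Galnt12 rose by 0.61, 0.83 and 1.11 in Casp1-null and by 0.50, 0.97 and 1.17 in wild type. C1galt1, the core 1 synthase, rose by 0.55 in Casp1-null and 0.45 in wild type, and Gcnt3, which makes core 2 and core 4 branches, rose by 0.87 in Casp1-null and had 0.39 in wild type (adjusted p = 0.181).

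Of 9 other secreted peptides, 4 were higher and 0 lower in Casp1-null ileum than duodenum, and 4 were higher and 1 lower in wild type. Spink4, a goblet protease inhibitor, rose by 1.56 in Casp1-null and 1.27 in wild type. Guca2a, the precursor of guanylin, rose by 3.00 in Casp1-null and 3.87 in wild type, whereas Guca2b, the precursor of uroguanylin, fell by 0.45 in wild type (adjusted p = 0.00524) and had -0.21 in Casp1-null (adjusted p = 0.197). Itln1 and Ang4, a secreted lectin and an antimicrobial ribonuclease that Paneth cells make as well, rose by 3.28 and 1.87 in Casp1-null and by 3.76 and 2.89 in wild type. Another Itln1 probe set rose less. It had 6.05 to 6.64 in Casp1-null ileum against 4.86 to 5.23 in Casp1-null duodenum, and 6.02 to 6.88 against 5.18 to 5.36 in wild type. Among 14 genes of mucus folding, release and processing, 4 were higher and 2 lower in Casp1-null, and 3 were higher and 1 lower in wild type. Ern2, a stress sensor of mucus-secreting cells, rose by 0.95 in Casp1-null and 0.86 in wild type, Sytl2, of vesicle release, by 0.67 and 0.64, and Bace2, a membrane protease, by 0.95 and 0.92. Another Bace2 probe set, of lower signal, did not show that rise. It had 4.70 to 4.75 in Casp1-null ileum against 4.50 to 4.99 in Casp1-null duodenum, and 4.51 to 4.64 against 4.57 to 5.01 in wild type. Mep1b, a subunit of the metalloprotease meprin, rose by 0.32 in Casp1-null (called in 4 of 13 alternatives) and had 0.09 in wild type (adjusted p = 0.571). Slc26a3, a chloride and bicarbonate exchanger of absorptive cells, fell by 0.49 in Casp1-null and 0.84 in wild type, and Cftr, a chloride and bicarbonate channel, fell by 1.01 in Casp1-null and had -0.09 in wild type (adjusted p = 0.804). None of 8 other measured mucins was called in either genotype (limma), with 1 at an unadjusted p under 0.05 in each. Over the 53 genes of the 5 lists, 20 were higher and 3 lower in Casp1-null, and 18 were higher and 4 lower in wild type. Without the 4 arrays that stood apart the counts were 18 and 2 in Casp1-null, and 17 and 2 in wild type. C1galt1 was then not called in either genotype, nor were Mep1b and Slc26a3 in Casp1-null and Dll4, Klf4 and Guca2b in wild type.

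Other cell types of the epithelium moved with the segments at the same time. Of 6 Paneth genes, 6 were higher in Casp1-null ileum than duodenum and 5 in wild type. Of 7 genes of crypt stem and cycling cells, 5 were higher in Casp1-null and 7 in wild type. Of 10 enterocyte genes, 1 was higher and 5 lower in Casp1-null, and 6 were lower in wild type. Without the 4 arrays that stood apart, 6 Paneth genes and 6 crypt genes were higher and 5 enterocyte genes lower in Casp1-null, and 5 and 7 were higher and 5 lower in wild type. Mean levels of the Paneth list were 10.64 to 10.92 in Casp1-null ileum against 7.90 to 8.95 in Casp1-null duodenum, and 10.59 to 11.49 in wild-type ileum against 7.85 to 8.12 in wild-type duodenum. Those of the crypt list were 7.17 to 7.67 against 5.62 to 6.28 in Casp1-null, and 7.08 to 8.51 against 5.17 to 5.50 in wild type, in the same order of segments. Those of the enterocyte list were 11.84 to 11.99 against 12.64 to 12.82 in Casp1-null, and 11.24 to 11.82 against 12.75 to 12.81 in wild type. Thus none of these lists overlapped between ileum and duodenum. The median difference was 0.29 over the 7 members in Casp1-null and 0.25 in wild type, against -0.02 and -0.05 over all genes. The part of cell composition in the goblet values was not tested.

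**Figure D2:**
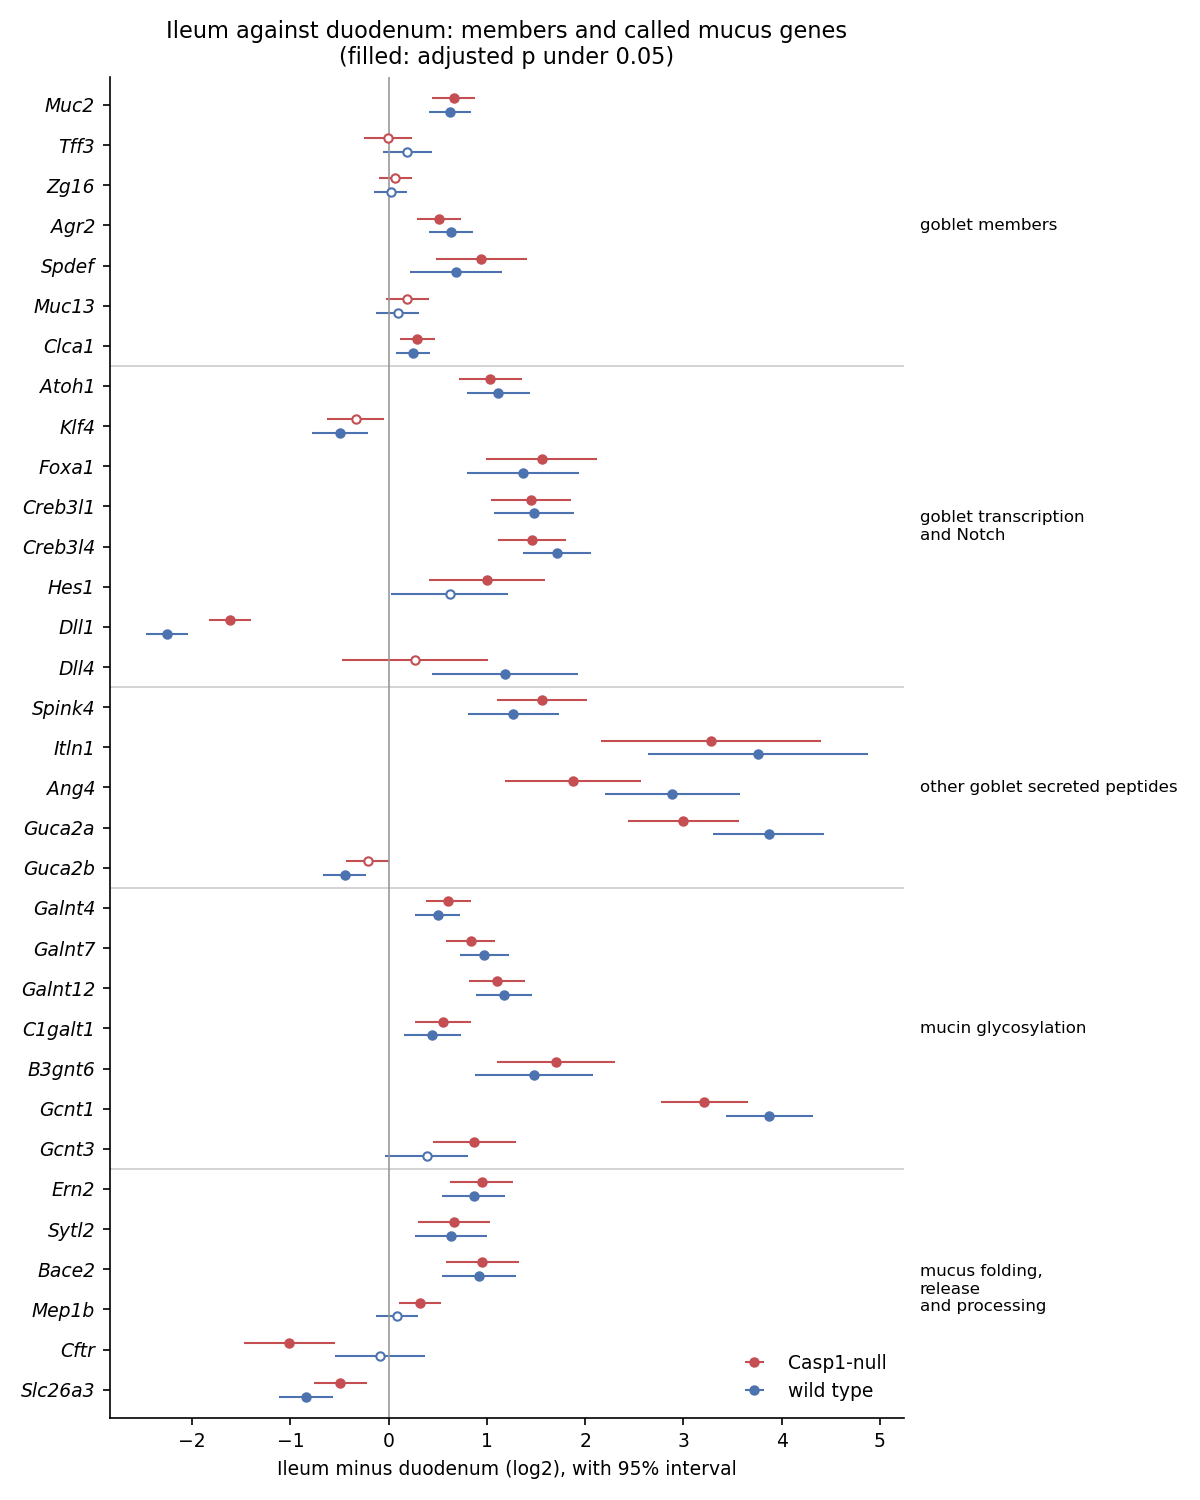
Ileum minus duodenum on the log2 scale, with 95% intervals, for the 7 measured members and the genes of the mucus lists called in at least 1 genotype; Casp1-null (red) is above wild type (blue) for each gene, and filled points have an adjusted p under 0.05. Muc2, Agr2, Spdef and Clca1 are filled in both genotypes, and Dll1 lies far to the left while Gcnt1 and Guca2a lie far to the right.

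Across the 18 intestinal arrays Muc2, Agr2 and Spdef followed each other, with Pearson's r of 0.92 between Muc2 and Agr2 and 0.82 for Spdef with each of them, as a description of points that share libraries and segments. With group means removed these r were 0.47, 0.31 and 0.45. Zg16 followed them least, with r of 0.17 to Muc2, 0.22 to Agr2 and 0.07 to Spdef. The 10 genes outside the list whose pattern over the 18 arrays was most like the mean of the standardised members, among 9403 genes above the median level, had r of 0.93 to 0.95. They were Syde1, Hsd17b2, Megf9, Arhgap1, Mfhas1, Tut4, Slc41a3, the complement gene C2, Gdpd1 and the magnesium channel gene Trpm6. Each of the 10 was lowest in duodenum and highest in ileum in both genotypes. The nearest gene of the mucus lists was Spink4, at r = 0.85 and rank 205.

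Between the genotypes, no member was called in any segment. In duodenum, jejunum and ileum 0 of 7 members were called (limma), where 1.21%, 2.06% and 0.893% of all genes were called. At an unadjusted p under 0.05, 1 of the 21 member differences stood out, that of Muc13 in jejunum. Muc13 had 12.74, 12.69 and 12.50 in Casp1-null jejunum, against 12.87, 13.02 and 12.79 in wild-type jejunum. The groups did not overlap, as for 19.5% of all genes in that comparison. The difference was -0.25 (SE 0.103, adjusted p = 0.351 in limma). It was -0.13 in duodenum and -0.03 in ileum, where the groups overlapped. Every other member's Casp1-null and wild-type arrays overlapped in every segment.

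The intervals bound differences in array signal. For the 6 members near the top of the scale, whether signal follows transcript amount in full was not tested. Over 6 members other than Spdef, the 18 differences lay between -0.25 and 0.14 and their 95% intervals between -0.47 and 0.38. Spdef differences lay between -0.17 and 0.13, with intervals between -0.63 and 0.60. All 21 differences were at most 1.19-fold in size. The members' direction was mixed, with a median of 0.01 in duodenum, -0.04 in jejunum and 0.04 in ileum. Under the alternatives tried, including leaving out the 4 arrays that stood apart, 0 members were called in any segment.

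Among the 53 measured genes of the mucus lists, few were called between the genotypes, 1 in duodenum, 3 in jejunum and 1 in ileum. The recurring gene was Rep15, which codes for a partner of the small GTPase Rab15 in receptor recycling and is a marker of goblet cells. Rep15 had 8.67, 8.56 and 8.84 in Casp1-null duodenum, against 7.83, 7.75 and 7.32 in wild-type duodenum. In jejunum it had 8.43, 8.46 and 8.10 in Casp1-null, against 6.97, 6.83 and 7.11 in wild type. In ileum it had 9.01, 8.54 and 8.93 in Casp1-null, against 7.92, 7.87 and 8.00 in wild type. The groups did not overlap in any segment, and the rises were 2.08-fold in duodenum (SE of log2 0.152, adjusted p = 0.00185), 2.57-fold in jejunum (adjusted p = 0.000222) and 1.87-fold in ileum (adjusted p = 0.00874). The ileal call held in 9 of 13 alternatives and was lost without ileum Casp1-null replicate 3, without the 4 arrays that stood apart, with a replicate block and with only the 6 ileal arrays. Mean levels of several lists lay apart between the genotypes as well, and how often other lists of that size do so was not taken. In duodenum they were 7.54 to 7.99 in Casp1-null against 6.91 to 7.07 in wild type over 10 immune genes, 5.62 to 6.28 against 5.17 to 5.50 over 7 crypt genes, up to 5.18, all above the wild-type 4.39 to 4.54, over 11 smooth muscle and stroma genes, and 5.79 to 5.92 against 6.08 to 6.17 over 6 tuft cell genes. In jejunum they were 5.29 to 5.89 in Casp1-null against 6.06 to 6.23 in wild type over the tuft cell genes. In ileum they were 11.84 to 11.99 in Casp1-null against 11.24 to 11.82 in wild type over 10 enterocyte genes, a narrow gap. Of these genes Fabp1 was called there (log2 1.76), a call that held in 12 of 13 alternatives. Also apart were hepatocyte genes in duodenum, lower in Casp1-null, and exocrine pancreas and proximal small intestine genes in ileum, higher in Casp1-null. The 12 mucin glycosylation genes lay at 7.46 to 7.52 in Casp1-null against 7.55 to 7.88 in wild type in duodenum, and at 7.49 to 7.57 against 7.79 to 7.98 in jejunum, with 0 called in either segment (limma; 1 and 4 at an unadjusted p under 0.05). Without the 4 arrays that stood apart, 1 of them was called lower in jejunum. The list of mucus folding, release and processing, which holds Rep15 and Agr3, lay at 7.97 to 8.05 in Casp1-null against 7.90 to 7.95 in wild type in duodenum. In jejunum it lay at 7.89 to 8.02 against 7.78 to 7.89, apart by less than the rounding. The other mucins, Muc4 among them, lay at 5.14 to 5.23 in Casp1-null against 5.33 to 5.55 in wild type in jejunum. The part of the other lists in the values of Rep15, Muc4 and Agr3 was not tested. In liver Rep15 was low, with 5.27, 5.35 and 4.99 in Casp1-null and 5.10, 5.10 and 5.24 in wild type.

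Muc4, a membrane mucin, fell in jejunum, with 7.78, 7.68 and 7.24 in Casp1-null against 9.29, 9.67 and 8.91 in wild type. The fall was 3.30-fold (log2 -1.72, SE 0.381, adjusted p = 0.034) and was called in 8 of 13 alternatives; it was lost on leaving out any of the 3 Casp1-null arrays or wild-type replicate 1 or 2. Agr3, a relative of Agr2, was at least 1.30-fold higher in Casp1-null jejunum (5.28, 4.98 and 5.67, against 4.12, 4.50 and 4.66 in wild type; adjusted p = 0.0386), with the wild-type mean under the lowest intestinal array median of 4.87, and its call held in 7 of 13 alternatives, not among them that without the 4 arrays that stood apart. Neither gene was called in duodenum or ileum. The jejunal differences of Muc4 and Agr3 were not called as different from those of the other segments.

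**Figure D3:**
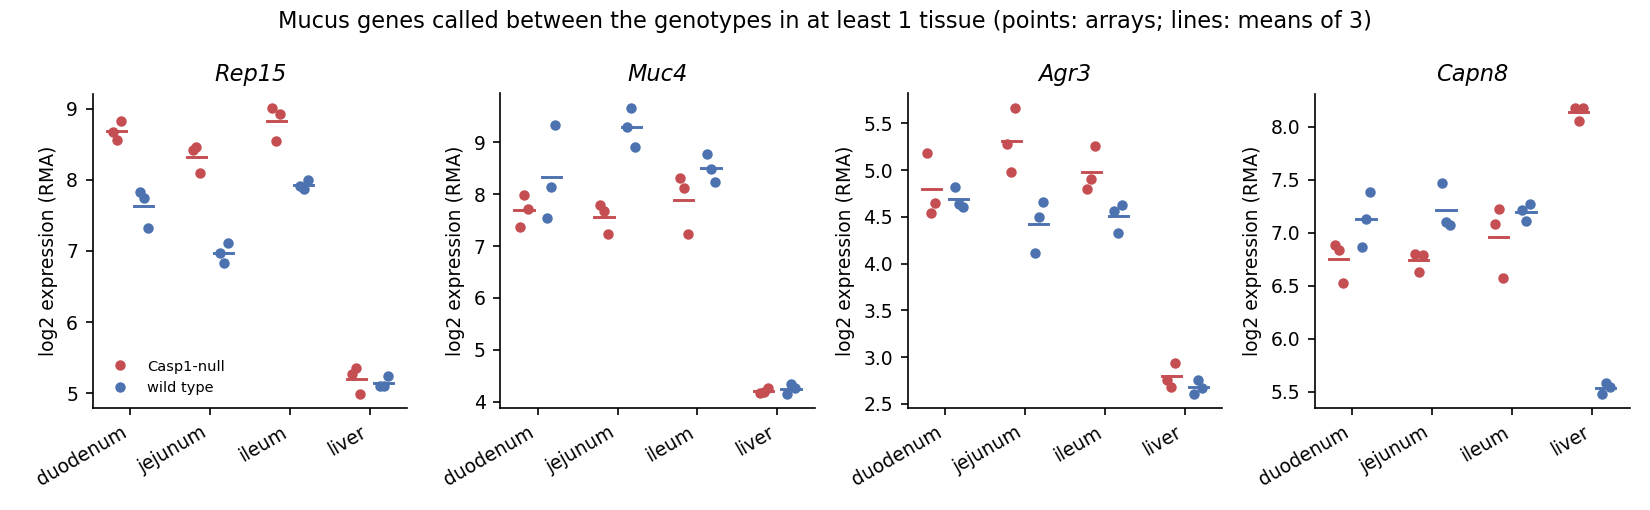
Log2 expression of Rep15, Muc4, Agr3 and Capn8, the mucus-list genes called between the genotypes in at least 1 tissue, in each of 24 arrays; Casp1-null (red) is left of wild type (blue), points are arrays, short lines are means of 3, and axes do not start at 0. Rep15 is separated in all 3 segments, Muc4 and Agr3 in jejunum, and Capn8 in liver.

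In liver, where each measured member lay under its intestinal range, the arrays of the genotypes lay apart for each of them. Zg16 had 5.83, 5.76 and 5.68 in Casp1-null livers, against 7.53, 7.96 and 6.95 in wild-type livers. The groups were separated by more than 1 log2 unit. Zg16 fell 3.30-fold (log2 -1.72, SE 0.241, adjusted p = 0.0387). It was the single member called, where 0.526% of all genes were called lower and 0.925% in either direction, and the call held in 5 of 12 alternatives. It was lost with a further quantile normalization (adjusted p = 0.0529), with a replicate block, and on leaving out any array other than wild-type replicate 3.

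Muc2 had 4.71, 4.54 and 4.64 in Casp1-null livers, against 5.40, 6.24 and 5.63 in wild-type livers. The Casp1-null mean was under the lowest liver array median, so Muc2 was at least 1.46-fold lower in Casp1-null livers, a difference not called (adjusted p = 0.0931). Muc13 had 4.42, 4.51 and 4.04 in Casp1-null livers, against 5.35, 5.63 and 5.13 in wild-type livers. It was at least 1.14-fold lower, with the Casp1-null mean again under that median, and was not called (adjusted p = 0.0671). The means of Clca1, Agr2 and Spdef were under it in both genotypes, so no size is given for them. Clca1 spanned 4.24 to 4.26 in Casp1-null and 4.63 to 5.39 in wild-type livers (adjusted p = 0.198). Agr2 spanned 4.40 to 4.66 in Casp1-null and 4.80 to 5.34 in wild-type livers, and Spdef 4.42 to 4.63 and 4.68 to 5.02.

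Tff3, by contrast, was the higher in Casp1-null. It had 7.54, 8.27 and 7.78 in Casp1-null livers, against 6.87, 6.84 and 6.40 in wild-type livers, and the difference was not called (1.16, SE 0.218, adjusted p = 0.0931). The groups of all 7 members did not overlap, with 6 lower and 1 higher in Casp1-null livers, where 11.1% and 8.96% of all genes lay apart in those directions. The 7 members all had an unadjusted p under 0.05. Fitted with all 24 arrays, whose spread then comes mostly from intestine, 6 of the 7 were called, Spdef being the exception. No share of all genes is given for either count, so they are not read as particular to the members.

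**Figure D4:**
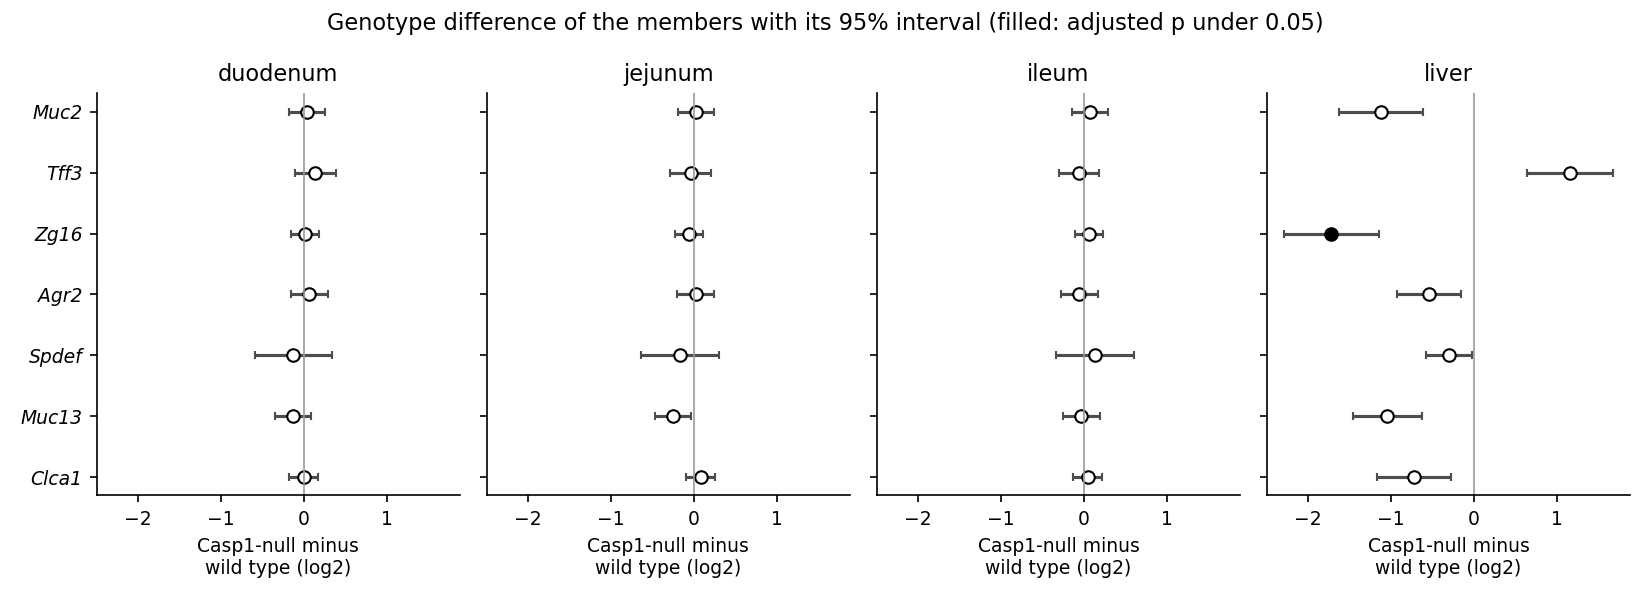
Genotype difference, as Casp1-null minus wild type in log2 units, with 95% intervals, for the 7 measured members in duodenum, jejunum, ileum and liver; filled points have an adjusted p under 0.05. The intestinal intervals all lie between -0.63 and 0.60, whereas in liver Zg16 is at -1.72 and Tff3 at 1.16; the liver points of the other 5 rest on at least 1 mean not shown above background and are not sizes.

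Whether the genotype difference itself differed between small intestine (mean of 3 segments) and liver was tested over all 24 arrays. It was called for 5 of 7 members, where 2.78% of all genes were called. The difference of Zg16 was 0.003 in intestine and -1.72 in liver, 1.72 apart (SE 0.178, adjusted p = 7.38e-06). That of Tff3 was 0.01 in intestine and 1.16 in liver, -1.15 apart (SE 0.184, adjusted p = 0.00142). Muc2 (adjusted p = 0.000553), Muc13 (adjusted p = 0.002) and Clca1 (adjusted p = 0.00662) were also called, but no size is given, since the liver means of Clca1 in both genotypes, and of Muc2 and Muc13 in Casp1-null, were not shown above background. Agr2 (adjusted p = 0.0567) and Spdef (adjusted p = 0.761) were not called. The 5 calls held in all 30 alternatives. The spread in this fit comes mostly from intestine, so its SEs can be too small for the liver part. Zg16 had an SD of 0.51 in wild-type livers, against 0.11 in wild-type ileum, its widest intestinal group. With the spread of liver alone, Zg16 was the single member called between the genotypes there.

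Genes of other intestinal cells also lay apart between the genotypes in liver, in both directions. Of 10 enterocyte genes, 7 were lower in Casp1-null livers and 1 higher without overlap. Over all genes 11.1% and 8.96% lay apart in those directions. Of the 10, 0 were called (limma, with 6 at an unadjusted p under 0.05). The mean level over the list was 7.23 to 7.33 in Casp1-null livers and 7.48 to 7.84 in wild-type livers. Sucrase-isomaltase, Sis, a defining enzyme of the enterocyte brush border, had 4.30, 3.93 and 4.38 in Casp1-null livers, against 5.48, 6.10 and 5.15 in wild-type livers, at least 1.31-fold lower with the Casp1-null mean not shown above background (adjusted p = 0.0874). Guca2b had 5.27, 5.69 and 5.75 in Casp1-null livers, against 6.58, 7.14 and 6.00 in wild-type livers (adjusted p = 0.241). Reg3g, an antimicrobial lectin of enterocytes and Paneth cells, was at least 1.98-fold lower in Casp1-null livers (adjusted p = 0.0488), a call kept in 3 of 12 alternatives. In wild-type livers replicate 2 was highest and replicate 3 lowest for 4 of 7 members and 5 of 10 enterocyte genes. The share of all genes with that order was not taken, so these counts do not set the members or the enterocyte genes apart from other genes. Apoa4, an apolipoprotein of enterocytes and fasted liver, was higher in Casp1-null livers instead (12.43 against 11.06 in wild type, adjusted p = 0.109).

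Of 5 measured genes of bile duct cells 0 were called (limma; 1 at an unadjusted p under 0.05), and their mean level was 4.98 to 5.40 in Casp1-null livers and 5.23 to 5.33 in wild-type livers. Epcam, a marker of bile duct and intestinal epithelium, was lower without overlap in Casp1-null livers (4.77 against 5.52 in wild type, adjusted p = 0.0986). The 10 exocrine pancreas genes had mean levels of 4.04 to 4.09 in Casp1-null livers and 3.99 to 4.09 in wild-type livers. Hepatocyte genes averaged 13.02 to 13.14 in Casp1-null livers and 12.86 to 12.99 in wild-type livers. The part of intestinal, bile duct or other tissue in the liver values was not tested.

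**Figure D5:**
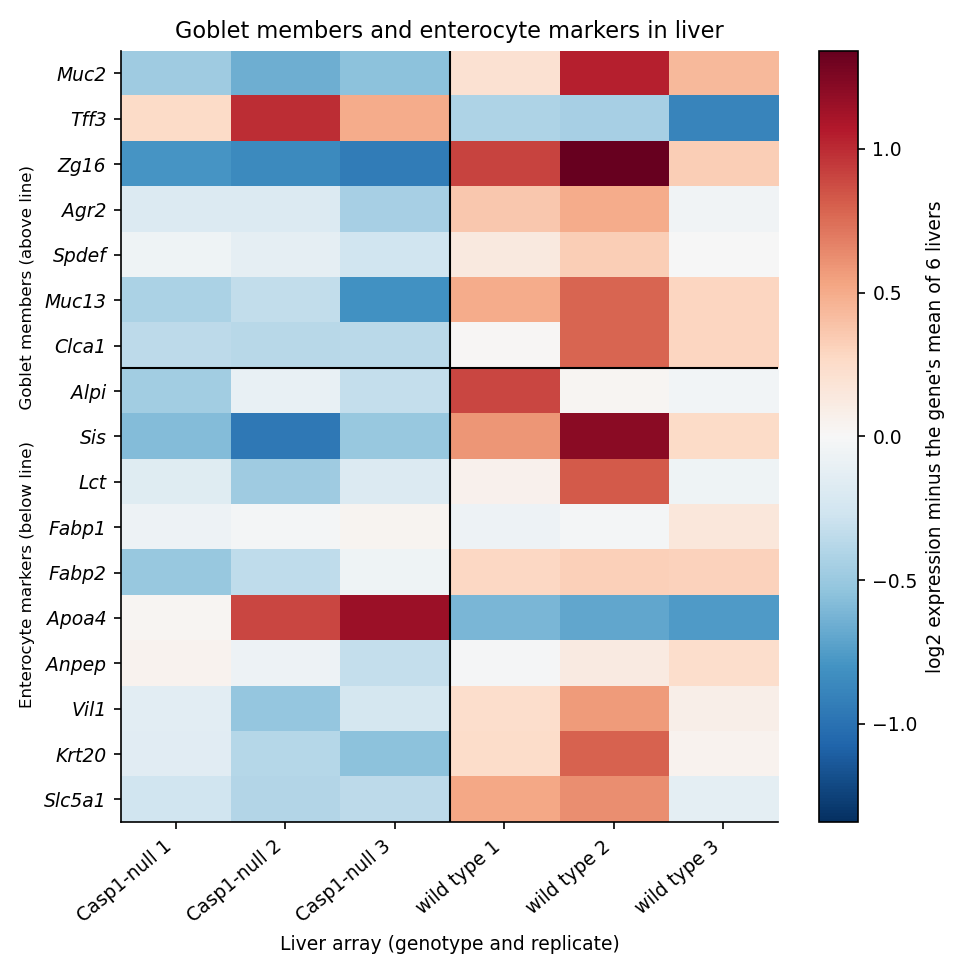
Log2 expression minus each gene's mean of 6 livers, for the 7 measured goblet members (above the horizontal line) and 10 enterocyte markers (below it), in 3 Casp1-null arrays (left) and 3 wild-type arrays (right); red is above and blue below the gene's mean. Casp1-null arrays are below the mean for Muc2, Zg16 and Sis (of which Muc2 and Sis are not shown above background in Casp1-null), and above it for Tff3 and for Apoa4.

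Among the 53 genes of the mucus lists, 1 was called in liver, Capn8, a calpain protease of gastric mucous cells. Capn8 had 8.18, 8.06 and 8.17 in Casp1-null livers, against 5.48, 5.59 and 5.55 in wild-type livers. It rose 6.04-fold (log2 2.60, SE 0.087, adjusted p = 7.32e-05), and the call held in all 12 alternatives. In intestine its difference was between -0.47 and -0.24 and was not called in any segment. The median over the 53 genes in liver was -0.02, against -0.01 over all genes. Mean levels of the goblet transcription and Notch list were 5.59 to 5.75 in Casp1-null livers and 5.93 to 5.98 in wild-type livers. Those of mucus folding, release and processing, the list that holds Capn8, were 5.18 to 5.31 and 5.03 to 5.11. The levels of the other mucus lists overlapped.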

How the data were processed

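RNA from scraped intestinal epithelium and from liver (100 ng each, integrity number above 8.0) was hybridised to 24 Affymetrix arrays, per the labels' protocols. The deposited table holds log2 values for 35556 probe sets, which the authors made with RMA, per the submitters' processing notes; whether liver and intestine were normalised together is not stated. RMA equalises the distributions of arrays, so values are relative within the array. Array medians were 4.87 to 5.01 in intestine and 5.19 to 5.22 in liver.

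Of the probe sets, 21218 carried 1 gene symbol, 1881 several and 12457 none. A gene was represented by its single-symbol probe set of highest mean, which gave 18820 genes; each measured member had 1 probe set. Gene names and promoters come from RefSeq tables of GRCm38.p6, and no source used here gives the build of the array design. Values were tested in R 4.3.3 with limma 3.58.1 (lmFit and eBayes), with Benjamini-Hochberg adjustment over all 35556 probe sets and calls at an adjusted p under 0.05. Fits held 18 intestinal arrays (12 residual degrees of freedom) or 6 livers (4), and all 24 (16) for contrasts between tissues. Exact permutation of 3 against 3 arrays gives no p under 0.1, so none was used. The number of arrays, 3 per group, limits the precision. Where a group's mean lay below the smallest of its tissue's array medians, the gene was taken as not shown above background there; this limit was chosen after seeing the data, and folds against such a group are given as "at least". Named genes were the 8 members, the called genes of 5 mucus lists, and the 10 genes nearest in pattern.

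The members and lists were chosen with earlier results of these data known. Pearson's r of the deviations of same-numbered arrays from group means was -0.157 to 0.222 between segments of 1 genotype, over 0.1 in 7 of 18 pairs, against 6 of 36 for arrays of different number. Between genotypes it was -0.366 to 0.337, over 0.1 in 1 of 12 pairs, against 7 of 24. Since not every same-numbered pair was over 0.1, replicate numbers were not taken as pairs. True pairs could miss that mark, so this does not settle whether same-numbered segments came from 1 animal. The analysis code was tested on simulated data. The alternatives tried were a variance trend, a filter on low values, another normalization or centring, a replicate block, other samples in the fit and leaving out arrays.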

Additional observations from a re-analysis of the deposited data

Results flagged for a closer look

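The genotype difference (Casp1-null minus wild type) differed between small intestine and liver by the test of that difference, in limma over all 24 arrays, for 5 members and for 5 further mucus genes. The spread in that fit comes mostly from intestine, so its p-values can be too small for the liver part. For the members the fitted small intestine minus liver value was 1.17 for Muc2, -1.15 for Tff3, 1.72 for Zg16, 0.91 for Muc13 and 0.76 for Clca1, with adjusted p between 7.38e-06 and 0.00662. The values of Muc2, Muc13 and Clca1 are not sizes, since liver means of Clca1 were under the lowest array median in both genotypes, and those of Muc2 and Muc13 in Casp1-null. For the 5 others it was 0.51 for the Notch ligand Dll1 (adjusted p = 0.0415), 0.73 for the membrane mucin Muc3 (adjusted p = 0.028), 1.19 for Guca2b (adjusted p = 0.00526), 1.05 for Rep15 (adjusted p = 0.00137) and -2.96 for Capn8 (adjusted p = 3.13e-09). The call of Dll1 held in 9 of 30 alternatives and that of Muc3 in 25 of 30, while those of Guca2b, Rep15 and Capn8 held in all 30. The values of Dll1, Muc3 and Rep15 are not sizes either, since at least 1 liver mean of each was under the lowest array median.

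Enterocyte genes were called in both directions in the same test, where 2.78% of all genes were called. Sis (adjusted p = 0.00076 in limma), Fabp2, Vil1, Krt20 and Slc5a1 had positive values, and Apoa4 a negative one (-1.19, adjusted p = 0.00611). These calls held in all 30 alternatives for Sis, Fabp2 and Apoa4, in 27 for Vil1, 15 for Slc5a1 and 7 for Krt20. What part other tissue in the liver samples has in these values was not tested.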

How the results depend on the processing

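Over 105 member results and 1614 alternative values, 1541 kept their direction and side of the threshold or stayed uncalled, 58 lost a call, 15 gained one and 0 reversed a call; 84 uncalled values had the other sign, none over 0.18 in size. The members called between genotypes in liver numbered 1, and were 2 with the filter at the median, 0 with a further quantile normalization, 0 with a replicate block, 6 with all 24 arrays in 1 fit, and 0 to 1 on leaving out single arrays. No share of all genes is given beside the 6 of the fit with all 24 arrays. Ileum against jejunum in wild type, with 1, had 0 with median centring, 0 with only the 6 arrays compared, 0 without the 4 arrays that stood apart (chosen after seeing the data), and 0 to 1 on leaving out single arrays, with 0 without jejunum replicate 2 or 3 or ileum replicate 1; without ileum replicate 3 the 1 called was Agr2 in place of Clca1. Ileum against duodenum, with 4 in each genotype, had 2 in Casp1-null with only the 6 arrays and 3 to 4 on leaving out single arrays; in wild type it had 2 without the 4 arrays and 2 to 3 on leaving out single arrays. Duodenum against jejunum in Casp1-null, with 1, had 2 with the variance trend, 2 with the filter and 2 with median centring, 0 with a replicate block, 0 with only the 6 arrays, 0 without the 4 arrays and 0 on leaving out any single array. In wild type, with 2, it had 1 with a replicate block, 0 with only the 6 arrays, 0 without the 4 arrays and 0 to 2 on leaving out single arrays. The replicate block, on numbers that were not taken as pairs, left the other counts of members within 1.5 times. Small intestine against liver kept 7, and its interaction with genotype 5 to 6, on leaving out single arrays; genotype in the 3 segments and the segment interactions stayed at 0. The causes of these changes were not tested beyond the fewer arrays in a fit. The other-probe-set alternative could not be run, since each measured member had 1 probe set. Near the background limit the arrays give only bounds, and with 3 arrays per group the intestinal genotype intervals reached -0.63 for Spdef.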
